A study of Mus musculus with 11 samples.

Results

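Leukemic B cells from the lymph nodes of Pax5+/- x Ebf1+/- mice were compared with column-purified progenitor B cells from the bone marrow of Ebf1+/- mice. The comparison used 8 of the 11 RNA-seq libraries of the series, chosen by their labels: 5 leukemias of 1 mouse each and 3 Ebf1+/- pools of 3, 6 and 7 mice. All mice were C57BL/6, no age was given, and all 8 libraries carried the loss of 1 Ebf1 allele. The leukemias also lacked 1 Pax5 allele. They further differed from the progenitors in tissue, in purification (a frozen cell suspension against a column), in pooling and in the alignment tools listed for them, so these differences cannot be told apart from the difference between leukemia and progenitor. The 3 wild-type progenitor pools of 3, 7 and 6 mice entered no test here, and their levels are given for orientation.

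Pax5 and Ebf1 are transcription factors that commit early lymphoid cells to the B lineage. Ebf1 opens B cell enhancers and activates Pax5, and Pax5 activates B cell genes while it silences genes of other blood lineages. Progenitor B cells rearrange their immunoglobulin genes, divide in response to interleukin 7 and signal through a pre-B receptor built on the surrogate light chain. Heterozygous loss of PAX5 or EBF1 is common in human B cell acute lymphoblastic leukemia.

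Levels are FPKM, fragment counts scaled by transcript length and library size, as deposited by the authors. Library totals recovered from the FPKM values were 11214136 to 15313920 reads in the Ebf1+/- pools and 8506680 to 14327558 in the leukemias, and for a 2000-base transcript each read added 0.033 to 0.059 FPKM. The 5 leukemias correlated with each other at r = 0.951 to 0.973 across genes, which are not independent replicates, and the 3 Ebf1+/- pools at 0.894 to 0.945. Ebf1+/- replicate 2 and wild-type replicate 2 were the closest pair between those groups (r = 0.989, chi-square per gene 12.6), closer than any 2 Ebf1+/- pools.

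A gene was called when limma gave a Benjamini-Hochberg adjusted p under 0.05 on log2(FPKM + 1). Added to every value, that 1 shrinks the fold change of weakly expressed genes. Of 11161 genes whose FPKM averaged 1 or more in these 8 libraries (of 23071 identifiers), 2409 (21.6%) were called, 1039 higher (9.31%) and 1370 lower (12.3%) in leukemia. Quantile scaling turned that split to 1568 higher and 1120 lower and moved the median log2 fold change of all genes from -0.02 to 0.08. At least a 2-fold change was reached by 357 of the genes called higher (3.2% of those tested) and 817 of those called lower (7.32%). A change of 4-fold or more was reached by 67 and 405. The samples of the groups did not overlap for 29.1% of tested genes. Counts of called members of the gene lists below are to be read beside the 9.31% and 12.3% of all tested genes where they come from this fit. Alternative fits called other shares of all genes. The fit with Ebf1+/- replicate 2 alone, described below, called fewer genes in total, so fewer called members there do not by themselves show a weaker change of a list.

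**Figure D1:**
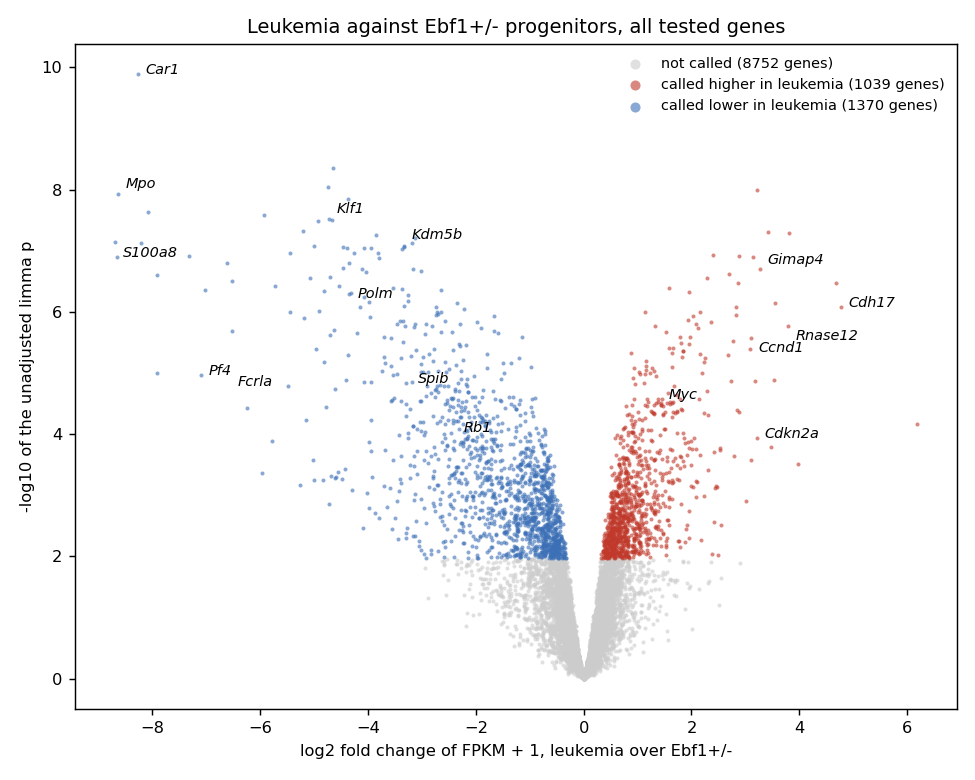
Log2 fold change of FPKM + 1 (x axis, leukemia over Ebf1+/-) against the -log10 of the unadjusted limma p (y axis) for the 11161 tested genes, with 1039 called higher in red, 1370 called lower in blue and selected genes labelled. The called genes on the left reach further from 0 than those on the right, with S100a8 at -8.69 and Cdh17 at 4.77.

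The Ebf1+/- pools held granulocyte and platelet RNA that the leukemias nearly lacked, and the markers of other blood lineages differed less. The 16 granulocyte markers summed to 2773 to 10826 FPKM in the Ebf1+/- pools, highest in replicate 1, and to 4.14 to 9.55 FPKM in the leukemias. Among these markers S100a8, S100a9, Ngp and Camp were highest in replicate 1, but Mpo, Elane and Prtn3 were highest in replicate 3. The 10 megakaryocyte and platelet markers summed to 156, 336 and 5207 FPKM in Ebf1+/- replicates 1, 2 and 3 and to 0.659 to 2.29 FPKM in the leukemias. Erythroid markers summed to 579 to 1355 against 143 to 304 FPKM, and Car2 and Tfrc (means of 112 and 110.4 FPKM) made up most of the leukemia sums. Monocyte and macrophage markers summed to 505 to 2095 against 67.9 to 171 FPKM. The groups overlapped for dendritic cell markers (117 to 235 FPKM in the pools, 123 to 247 FPKM in the leukemias) and for the T cell and NK cell sums. The globin genes Hbb-bt, Hbb-bs and Hba-a1 are listed at 0 in all 11 libraries, so they say nothing of this difference. The 17 pro-B and pre-B markers summed to 8746, 6307 and 3088 FPKM in the 3 pools and to 4420 to 5661 FPKM in the leukemias, so pro-B and pre-B RNA was highest in replicate 1 and lowest in the platelet-rich replicate 3. In bulk RNA, fewer cells of a type and less RNA per cell cannot be told apart. The part of these lineages in the gene changes below was not tested, beyond a fit with Ebf1+/- replicate 2 as the only progenitor library, which is given where it matters and assumes that this library varies like the leukemias. In that fit 231 genes were called higher and 338 lower, and 77 of the genes examined singly lost their calls. Among those described below, these include Irf8, Ikzf3, Cd72, Notch1, Cd24a, Syk, Lyn, Il7r, Socs2, Bcl2l1, Rb1, Cdkn2a, Myc, Rps3, Cd44 and E2f2. With 1 control library the standard errors were larger, and several of these fold changes were about as large as with all 3 pools or larger. The log2 fold change of Ikzf3 was -4.03 (SE 1.02) against -3.13 (SE 0.65), that of Rb1 was -1.63 in both fits, that of Cdkn2a 3.32 against 3.22 and that of Myc 1.39 against 1.45. That of Il7r was 0.60 against 0.90. The filter of 1 FPKM was applied again in the fit with replicate 2 alone, and 260 of the 2409 called genes were not tested in it.

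**Figure D2:**
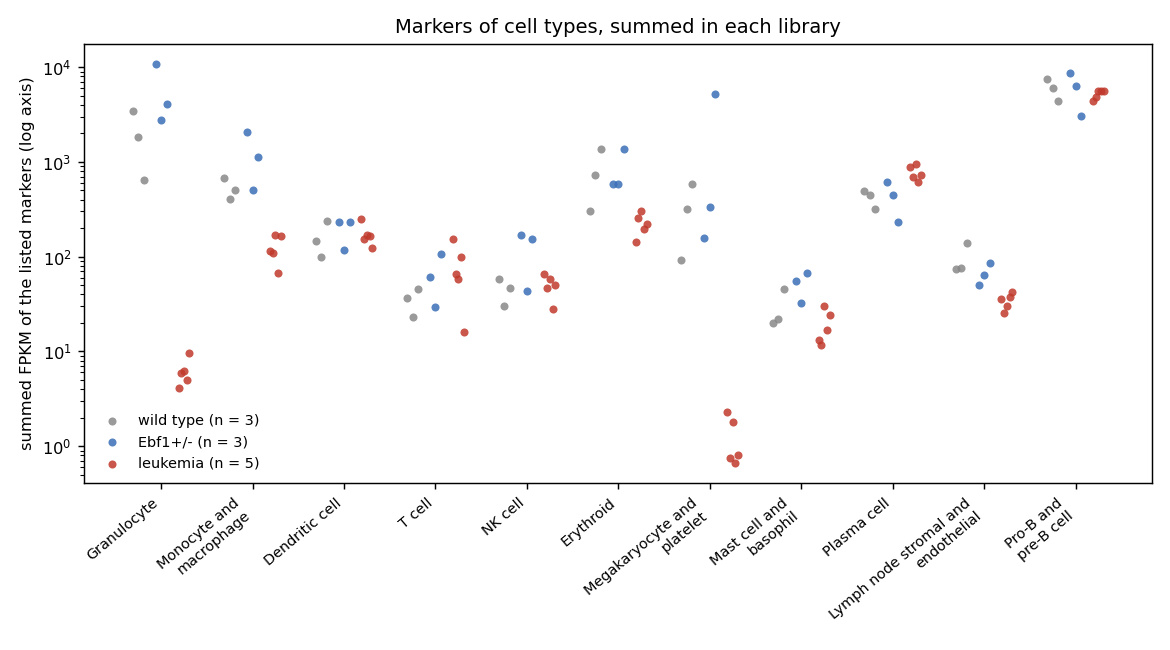
Summed FPKM of the listed markers of each cell type (log axis) in every wild-type, Ebf1+/- and leukemia library (points). The granulocyte sums lie at 2773 FPKM or more in the Ebf1+/- pools and at 9.55 FPKM or less in the leukemias, while the pro-B and pre-B sums of the leukemias (4420 to 5661) fall inside the range of the pools (3088 to 8746).

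Neither of the heterozygous genes was called. Pax5 (chromosome 4, 44524748 to 44710694, GRCm38) stood at 254, 193 and 89 FPKM in the Ebf1+/- pools and at 128, 162, 145, 88.3 and 71.4 FPKM in the leukemias. The groups overlapped, with means of 179 ± 83.5 (SD, n = 3) and 119 ± 38.3 (n = 5), so the leukemias held 66.6% of the progenitor level (two-sided exact permutation p = 0.214, smallest possible 0.0179). The limma log2 fold change of Pax5 was -0.52 (SE 0.37, adjusted p = 0.342). Ebf1 (chromosome 11, 44618100 to 45008096), heterozygous in both groups, stood at 83.6, 86.5 and 43.4 FPKM in the pools and at 54.3, 59.1, 72.7, 81.4 and 65.6 FPKM in the leukemias, again overlapping. Its means were 71.2 ± 24.1 (SD, n = 3) and 66.6 ± 10.8 (n = 5), 93.6% of the progenitor level (exact permutation p = 0.679, log2 fold change -0.04, SE 0.23). These RNA values do not show which allele was read. The sign of the Ebf1 difference turned when Ebf1+/- replicate 1, Ebf1+/- replicate 2 or leukemia 1 was left out and under quantile scaling.

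The core of the progenitor B cell program was present in every leukemia. Cd79a, a signalling chain of the B cell receptor, averaged 814 ± 421 FPKM in the pools and 755 ± 141 FPKM in the leukemias (SD, n = 3 and n = 5). The surrogate light chain genes Igll1 and Vpreb1 averaged 509 and 503 FPKM in the pools against 836 and 918 FPKM in the leukemias, and were not called (limma adjusted p = 0.123 and 0.0567). Igll1 read 733, 572 and 221 FPKM in the pools and 937, 930.2, 853, 908 and 552 FPKM in the leukemias, so leukemia 5 stood apart from the other 4. None of the 6 surrogate light chain and Cd79 genes was called by the main limma fit or by voom on recovered reads (3 were higher at an unadjusted p under 0.05), with a median log2 fold change of 0.44 against -0.02 for all tested genes. That median was -0.06 without Ebf1+/- replicate 3 and 0.80 without replicate 1, where 2 genes were called higher. Vpreb1 was also called higher by limma with median-ratio scaling (adjusted p = 0.0466) and quantile scaling (0.0476). The same held with library weights (0.0256) and with the wild-type pools in the fit (0.0477), and it was not called in the remaining alternatives. Vpreb1 and Vpreb2 are near-identical copies whose reads may be split between them.

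Several transcription factors that act beside Pax5 and Ebf1 fell. Of 45 tested B lineage factors, 13 were called lower and 2 higher, with a median log2 fold change of -0.36, beside 12.3% and 9.31% of all tested genes. In the fit with Ebf1+/- replicate 2 alone 8 were lower and 0 higher. Spib (chromosome 7, 44525995 to 44532087), an ETS factor of B cells and plasmacytoid dendritic cells, stood at 307, 245 and 132 FPKM in the pools and at 55.1, 52.7, 35.7, 35 and 35.3 FPKM in the leukemias. Every leukemia lay below every pool (log2 fold change -2.33, SE 0.28, adjusted p = 0.000789), and wild-type pools read 652, 454 and 377 FPKM. Irf8, an interferon regulatory factor shared by B and myeloid cells, read 102, 76.4 and 126 FPKM in the pools and 14.5, 10.8, 15.4, 17.9 and 38.3 FPKM in the leukemias (log2 fold change -2.43, SE 0.35, adjusted p = 0.00186). Its relative Irf4, which promotes the pre-B to B cell transition, averaged 67.5 ± 24.5 and 18.5 ± 6.93 FPKM. In the fit with Ebf1+/- replicate 2 alone the adjusted p of Irf8 was 0.0955.

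Ikzf3 (Aiolos), an Ikaros family factor that rises as pre-B cells stop dividing, read 11.7, 46 and 26 FPKM in the pools and 3.33, 0.484, 1.02, 0.566 and 8.69 FPKM in the leukemias. The 5 leukemias differed widely among themselves, and all lay below the pools (log2 fold change -3.13, SE 0.65, adjusted p = 0.0106). Ikaros itself, Ikzf1, averaged 147 and 96.4 FPKM and was also called lower (-0.59). Tcf3, which encodes the E proteins E12 and E47, read 229, 257 and 159 FPKM in the pools and 67.6, 68.4, 98, 69.6 and 111 FPKM in the leukemias, without overlap (log2 fold change -1.37, SE 0.22, adjusted p = 0.00333). Bach2, a repressor required at the pre-B receptor checkpoint, fell from 56.2 ± 19.6 to 12.5 ± 5.64 FPKM. Klf13, a Kruppel-like factor, fell from 38.5 ± 4.07 to 19.1 ± 3.15 FPKM. Gfi1b, a factor of erythroid and megakaryocytic cells, fell most within the list (-4.21), beside the erythroid and platelet marker sums given above. The 2 factors that rose were Tcf7, a Wnt pathway factor best known from T cells (9.88 ± 0.665 to 35 ± 15.6 FPKM), and Mef2c (26.1 to 43.4 FPKM). The call of Mef2c was lost (adjusted p = 0.0505 to 0.0823) without Ebf1+/- replicate 1 or 3 or leukemia 1, 2, 3 or 5.

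Genes that Pax5 is known to activate leaned the same way. Of 20 tested, 8 were called lower and 0 higher, with a median log2 fold change of -1.06. The 8 were Spib, Ikzf3, Irf8, Irf4, Bach2, Lef1, Cd55 and Cd72, of which the first 6 are also in the list of B lineage factors. Lef1 lost its call (adjusted p = 0.078 to 0.145) without Ebf1+/- replicate 1 or 2 or leukemia 1, 2 or 5. Cd72, a B cell inhibitory receptor, read 232, 118 and 54.8 FPKM in the pools and 26.7, 25.5, 23, 18.2 and 4.92 FPKM in the leukemias. Like the pro-B and pre-B marker sums it was highest in replicate 1 and lowest in replicate 3 of the pools, and it stayed below all 3 pools in every leukemia. With Ebf1+/- replicate 2 as the only control, 3 of the list were called lower. Of 12 tested genes that Pax5 is known to repress, 3 were called higher and 2 lower (median 0.37). Notch1, the receptor that directs T cell fate, read 9.39, 16.5 and 16.9 FPKM in the pools and 39.4, 30.3, 29.8, 38.4 and 21.1 FPKM in the leukemias, without overlap (log2 fold change 1.11, SE 0.24, adjusted p = 0.0129). Fcer1g, an Fc receptor chain of myeloid cells in the same list, fell from 90.9 ± 58 to 1.83 ± 1.01 FPKM. Its pool values of 140.2, 27 and 106 FPKM were highest in replicate 1 and lowest in replicate 2.

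Of 14 tested Ebf1-activated genes, 2 were called lower and 0 higher (median -0.38), beside 12.3% and 9.31% of all tested genes. Cd24a, a surface glycoprotein of immature B cells, read 1130, 1087 and 595 FPKM in the pools and 154, 308, 418, 184 and 449.5 FPKM in the leukemias, all below the pools (log2 fold change -1.70, SE 0.39, adjusted p = 0.0157). Cd40, a co-stimulatory receptor of mature B cells, was low in both groups (4.12 ± 3.4 and 0.758 ± 0.807 FPKM), and the groups overlapped. Its adjusted p was 0.046 and 0.0741 to 0.126 when Ebf1+/- replicate 1 or 2 or leukemia 2, 3, 4 or 5 was left out. That of Cd24a was 0.058 without Ebf1+/- replicate 2.

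Genes of later B cell stages included the steepest fall within the lineage. Of 21 tested, 4 were called lower and 1 higher (median -0.40). Fcrla, a B cell protein related to Fc receptors, read 278, 172 and 89.6 FPKM in the pools and 5.17, 0.53, 5.51, 0.313 and 6.87 FPKM in the leukemias, 49-fold lower by the means (log2 fold change -5.49, SE 0.67, adjusted p = 0.00085). Wild-type pools held 478, 329 and 263 FPKM of it.

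Among 12 tested genes of V(D)J recombination and end joining, 2 were called higher and 2 lower (median -0.30), beside 9.31% and 12.3% of all tested genes. Rag1, the recombinase, averaged 127 ± 50.4 and 125 ± 89.4 FPKM and ranged from 43.2 to 242 FPKM among the leukemias. Dntt, the template-free polymerase that adds N nucleotides, ranged from 13.9 FPKM in leukemia 1 to 706 FPKM in leukemia 4 and was not called (adjusted p = 0.444). Polm, a polymerase that fills gaps during light chain joining, read 46.7, 20.2 and 12.5 FPKM in the pools and 0.322, 0.104, 0.165, 0.132 and 0.262 FPKM in the leukemias, 134-fold lower by the means (log2 fold change -4.32, SE 0.35, adjusted p = 8.84e-05). Its relative Poll, which fills gaps in heavy chain joins, rose in the same leukemias from 9.56 ± 1.35 to 22.4 ± 3.4 FPKM (log2 fold change 1.14, SE 0.15, adjusted p = 0.00132). Lig4, the ligase of this pathway, fell (-1.27), and Xrcc5, which encodes Ku80, rose (1.07).

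Pre-B receptor signalling genes moved in both directions, with 4 called higher and 8 lower of 29 tested (median 0.04). Syk, the proximal kinase, read 206, 252 and 175 FPKM in the pools and 67.9, 91.1, 100, 90.4 and 137 FPKM in the leukemias (log2 fold change -1.13, SE 0.21, adjusted p = 0.00709). Lyn, a Src kinase of the same step, read 91.3, 83.3 and 94 against 27, 34.8, 38.2, 32.3 and 54.3 FPKM (log2 fold change -1.28, SE 0.20, adjusted p = 0.00283). Both kinases were highest in leukemia 5 among the leukemias, and no leukemia reached the pools. Pik3ap1, an adaptor that links the receptor to PI3 kinase, fell (-1.89), while Pik3cd, the p110 delta subunit of that kinase, rose (0.87). Lcp2, an adaptor shared with T cells, platelets and myeloid cells, fell from 20.4 ± 15.8 to 1 ± 0.263 FPKM, and its pool values of 13.5, 9.16 and 38.4 FPKM were highest in the platelet-rich replicate 3.

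Antigen presentation genes were mostly not called. Of 11 tested MHC class II genes, 1 was called lower (H2-DMa, 32 ± 13.9 to 9.29 ± 3.84 FPKM), and the list's median log2 fold change was -1.06. At an unadjusted p under 0.05, 6 of the 11 were lower and 0 higher. Without Ebf1+/- replicate 1 the adjusted p of H2-DMa was 0.0574. H2-Aa read 189, 91.8 and 64.3 FPKM in the pools and 93.1, 16.4, 32.9, 7.81 and 28.4 FPKM in the leukemias, with leukemia 1 inside the pool range and the other 4 below it (adjusted p = 0.0676). Without leukemia 1, H2-Aa, H2-Eb1 and Cd74 were called lower (limma adjusted p = 0.0179, 0.0354 and 0.0313) and H2-Ab1 was not called. MHC class I genes had 2 called higher and 1 lower of 15.

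**Figure D3:**
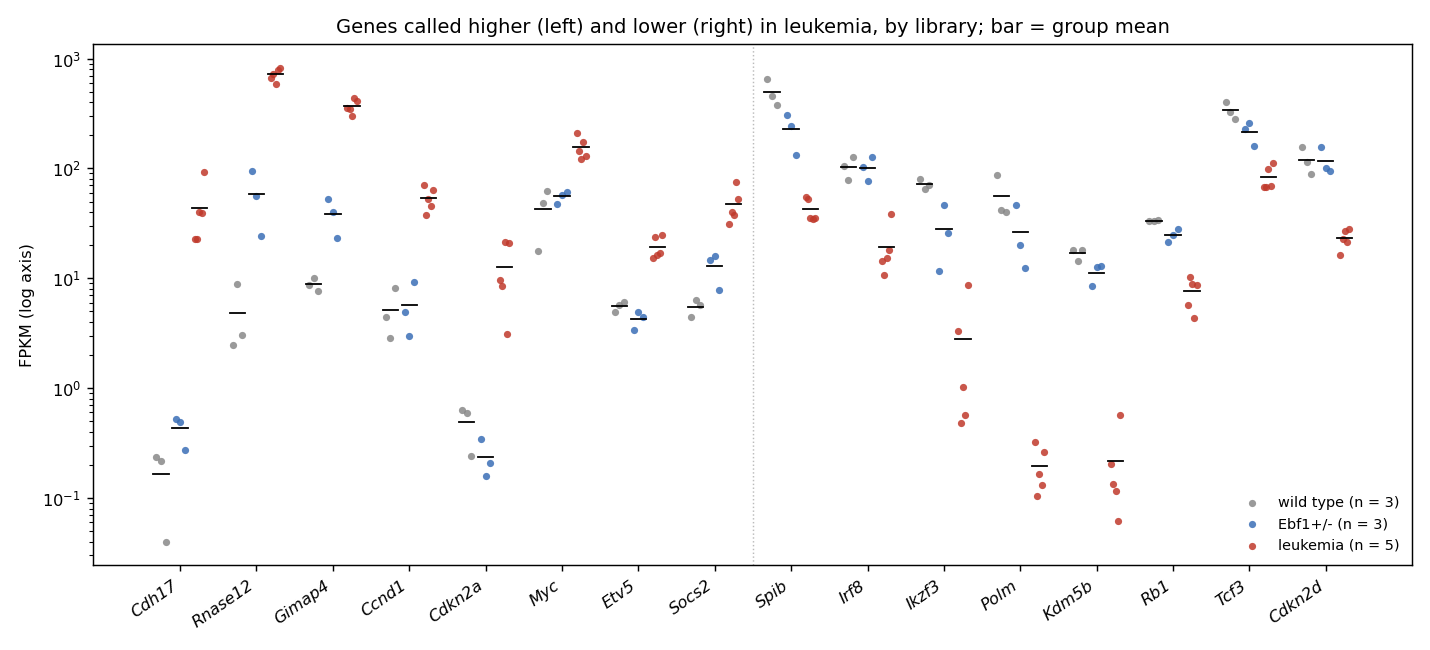
FPKM (log axis) of 16 genes in every wild-type, Ebf1+/- and leukemia library (points, with a bar at each group mean), with genes called higher in leukemia on the left and lower on the right. The 5 leukemias of Gimap4 (299 to 434 FPKM) lie above every progenitor pool, which for the Ebf1+/- pools was a condition of its naming. Those of Polm (0.104 to 0.322 FPKM) lie below every pool.

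Several of the genes that rose most were below 2 FPKM in every Ebf1+/- pool. Cdh17, a cadherin best known from intestine, read 0.528, 0.489 and 0.275 FPKM in the pools and 22.9, 22.7, 39.8, 39.4 and 93.5 FPKM in the leukemias, 101-fold higher by the means (log2 fold change 4.77, SE 0.41, adjusted p = 0.000127). Wild-type pools held 0.0399 to 0.234 FPKM of it. Ston1, an endocytic adaptor, read 0.416, 1.52 and 0.586 FPKM in the pools and 22.1, 25.1, 19.2, 34.2 and 21.2 FPKM in the leukemias (log2 fold change 3.80, SE 0.24, adjusted p = 3.9e-05). Galnt14, a glycosyltransferase, rose from 0.822 ± 0.239 to 18.8 ± 4.75 FPKM, and Plch1, a phospholipase C, from 0.165 ± 0.1 to 9.86 ± 1.45 FPKM. Cacna1h, a T-type calcium channel subunit, rose from 0.116 ± 0.0409 to 12.8 ± 5.06 FPKM. No overlap between leukemias and pools was a condition of the rule that named these 5 genes.

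Other genes of this group were less even. Scin, an actin-severing protein, read 67.1, 172, 72.9, 10.9 and 85.2 FPKM in the leukemias against 2.68, 4.28 and 2.15 FPKM in the pools, and leukemia 4 was the lowest. Msrb3, a methionine sulfoxide reductase, ranged from 5.48 to 45.6 FPKM in the leukemias and Amotl1, a cell junction protein, from 5.03 to 23.9 FPKM. In the fit with Ebf1+/- replicate 2 alone, Scin, Amotl1 and Msrb3 lost their calls (adjusted p = 0.149, 0.0552 and 0.121). The predicted gene Gm525 (chromosome 11, 89073841 to 89093064), outside the naming rule and singled out after its values were seen, had the highest log2 fold change of all called genes (6.19, SE 0.91, adjusted p = 0.00205). Its leukemia values of 608, 69, 324, 569 and 39.3 FPKM were unequal, against 3.6, 0.767 and 1.5 FPKM in the pools, and voom on recovered reads gave an adjusted p of 0.148.

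Dlx1, a homeobox gene known from forebrain and limb, read 2.42, 1.41 and 0.686 FPKM in the pools and 20.3, 19.8, 17.4, 20.3 and 24.2 FPKM in the leukemias (log2 fold change 3.15, SE 0.22, adjusted p = 4.04e-05). Its antisense gene Dlx1as rose beside it (0.698 to 9.93 FPKM), and without strand information their reads cannot be told apart. Trem1, an activating receptor of myeloid cells, rose from 3.67 ± 0.422 to 33.9 ± 10.4 FPKM in leukemias whose granulocyte markers were near 0. Further genes above 5 FPKM that rose were Angptl2, Sema3g, Tnni2, Qrfp and Dyrk4, with log2 fold changes of 2.67 to 2.89.

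Neighbouring genes rose together at a pair of loci. At chromosome 14, 51038459 to 51106151, the 5 consecutive tested genes Rnase9, Rnase11, Rnase12, Ang and Rnase4 of the ribonuclease A family were all called higher. Rnase12 read 94.4, 56.1 and 24.5 FPKM in the pools, 672, 721, 588, 793 and 827 FPKM in the leukemias and 2.48, 8.82 and 3.04 FPKM in wild type. The pools thus lay between wild type and leukemia (leukemia against pools: log2 fold change 3.79, SE 0.35, adjusted p = 0.000187) and did not overlap with wild type. For Rnase12 and Rnase11, and for Gimap4 below, no overlap between leukemias and pools was a condition of the rule that named them. Rnase11 rose from 0.247 ± 0.214 to 33.9 ± 16.3 FPKM. Ang and Rnase4, which overlap so that their reads may be split between them, rose to 4.61 ± 1.28 and 27.7 ± 3.02 FPKM.

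At chromosome 6, 48628167 to 48724636, AI854703 and the 5 GTPase genes Gimap8, Gimap9, Gimap4, Gimap6 and Gimap7 were all called higher. Gimap proteins are GTPases of lymphocyte survival. Gimap4 read 52.7, 40.1 and 23.5 FPKM in the pools and 352, 349, 299, 434 and 415 FPKM in the leukemias, against 7.66 to 10 FPKM in wild type (log2 fold change 3.28, SE 0.24, adjusted p = 5.38e-05). Gimap6 rose from 72.3 ± 23.4 to 180.2 ± 39.2 FPKM and Gimap7 from 7.16 ± 2.1 to 29.6 ± 10.4 FPKM. Runs were sought as 4 or more neighbouring tested genes called in 1 direction with at least a 2-fold change, and the only other one was lower, Ccl5, Ccl9, Ccl6, Wfdc17 and Wfdc21 on chromosome 11 (83525778 to 83752646), which includes chemokine genes of myeloid and NK cells. The groups overlapped for Ccl9 (5.06 FPKM in leukemia 3 against 2.55 FPKM in Ebf1+/- replicate 2), and its call, and with it this run, was lost (adjusted p = 0.0637 to 0.104) without Ebf1+/- replicate 1 or 3 or leukemia 1, 2, 4 or 5.

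Interleukin 7 signalling components were split. Of 19 receptor, JAK and STAT genes, 4 were called higher and 4 lower (median -0.31), beside 9.31% and 12.3% of all tested genes. Il7r, the receptor chain, read 86.5, 89.2 and 48.9 FPKM in the pools and 122, 102, 157, 159 and 146 FPKM in the leukemias, without overlap (log2 fold change 0.90, SE 0.23, adjusted p = 0.0233). Its adjusted p was 0.0608 without Ebf1+/- replicate 3 and 0.0536 without leukemia 3, and wild-type pools held 141, 117 and 118 FPKM. Jak3 and Stat4 rose (0.75 and 1.03), while Jak2, Stat3 and Il2rb fell (-1.14, -0.70 and -2.04). Leaving out single libraries ended the calls of Jak3 (Ebf1+/- 1 or 3 or leukemia 1, adjusted p = 0.0554 to 0.0781), Jak2 (Ebf1+/- 2 or 3 or leukemia 1, 2 or 3, 0.0599 to 0.0677) and Stat4 (each library but leukemia 1, 0.055 to 0.115). Among 16 STAT5 target genes 3 were called higher and 3 lower (median 0.13). Socs2, a feedback inhibitor of cytokine signalling, read 14.8, 16.1 and 7.8 FPKM in the pools and 31.1, 40.4, 37.7, 74.7 and 52.6 FPKM in the leukemias (log2 fold change 1.79, adjusted p = 0.00441). Bcl2l1, which encodes the survival protein BCL-XL and is counted in the same list, fell from 50.1, 43.8 and 49.7 FPKM to 9.38, 8.58, 19.1, 14.7 and 21.2 FPKM (log2 fold change -1.72, SE 0.28, adjusted p = 0.00365).

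Several feedback genes of the ERK pathway rose and several of its components fell. Of 12 tested ERK feedback and target genes 4 were called higher and 0 lower (median 0.39), and of 25 RAS and ERK components 0 were higher and 5 lower (median -0.12). Over all tested genes 9.31% were called higher and 12.3% lower. At an unadjusted p under 0.05, 2 of the feedback genes were lower and 2 of the components higher. Etv5, an ETS factor induced by ERK, read 3.35, 4.95 and 4.41 FPKM in the pools and 15.3, 23.8, 16.2, 17 and 24.8 FPKM in the leukemias (log2 fold change 1.95, SE 0.20, adjusted p = 0.000299). Dusp4 and Dusp6, phosphatases that dampen ERK, rose from 0.69 ± 0.853 to 5.01 ± 1.39 and from 22.6 ± 8.8 to 70.4 ± 20.6 FPKM, and Spred1, an inhibitor of RAS activation, rose by 1.13 on the log2 scale. Mapk3, which encodes ERK1, fell (53.5 ± 9.3 to 31.6 ± 3.77 FPKM), as did the adaptor Shc1 (37.1 ± 3.41 to 26.2 ± 1.71 FPKM). The test of the difference between these lists was not made.

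Of 9 tested immediate early genes 3 were called lower and 1 higher (median -0.69), and of 14 NF-kB targets 2 were lower and 1 higher (median -0.43), beside 12.3% and 9.31% of all tested genes. Jun, the AP-1 factor, rose from 13.9, 10.5 and 8.77 FPKM to 16.7, 43, 40.6, 74.8 and 82.2 FPKM (log2 fold change 1.95, SE 0.45, adjusted p = 0.0161), and wild-type replicate 1 reached 63.5 FPKM, inside the leukemia range. The adjusted p of Jun was 0.0501 without Ebf1+/- replicate 2 and 0.0559 without replicate 3. Tnf, the cytokine, rose from 0.853 ± 1.04 to 4.21 ± 1.25 FPKM, while Bcl3, an atypical inhibitor of NF-kB, fell from 7.62 ± 4.33 to 1.17 ± 1.17 FPKM.

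The G1 control genes changed member by member. Of 20 tested, 3 were called higher and 4 lower (median -0.21), beside 9.31% and 12.3% of all tested genes. Ccnd1, cyclin D1, read 4.9, 2.98 and 9.27 FPKM in the pools and 70.6, 37.5, 52.3, 45.6 and 63 FPKM in the leukemias, 9.41-fold higher by the means (log2 fold change 3.10, SE 0.30, adjusted p = 0.000243). Ccnd3, the cyclin D of normal pre-B cells, fell from 509, 483 and 311 FPKM to 56.1, 109.7, 289, 115 and 258 FPKM, so leukemias 3 and 5 stayed close to the lowest pool (log2 fold change -1.60, SE 0.49, adjusted p = 0.0476). That call was lost (adjusted p = 0.059 to 0.124) without any 1 of the 3 pools or leukemia 1, 2 or 4, and Ccnd3 overlaps Bysl. Ccnd2 was uneven among the leukemias (12.8 to 136 FPKM) and was not called. Cdk4, the kinase partner of the D cyclins, rose from 253 ± 22.6 to 406 ± 17.5 FPKM.

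Rb1, which encodes the retinoblastoma protein that the D cyclins inactivate, read 21.5, 24.6 and 28.2 FPKM in the pools and 5.69, 10.3, 8.85, 4.35 and 8.71 FPKM in the leukemias (log2 fold change -1.63, SE 0.25, adjusted p = 0.00252). Wild-type pools held 32.9 to 34 FPKM, and the gene overlaps Lpar6. Cdkn2a, the INK4A and ARF locus, read 0.345, 0.157 and 0.21 FPKM in the pools and 9.62, 8.47, 21.5, 3.13 and 20.8 FPKM in the leukemias, 53.5-fold higher by the means (log2 fold change 3.22, SE 0.50, adjusted p = 0.0029). A value per gene does not separate INK4A from ARF. Its adjusted p was 0.0873 with Ebf1+/- replicate 2 alone and 0.0646 with voom on recovered reads. Cdkn2d, another INK4 inhibitor, went the other way, from 156, 101 and 95.7 FPKM to 16.4, 23, 26.7, 21.5 and 28 FPKM (log2 fold change -2.29, SE 0.21, adjusted p = 0.000181). E2f2 fell from 102 ± 29.9 to 21.8 ± 9.25 FPKM.

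Many mitosis genes fell. Of 30 tested, 14 were called lower and 0 higher, all 30 had a log2 fold change below 0 and the median was -0.46, beside 12.3% of all genes called lower. The share of lower calls was 11 of 30 under quantile scaling and 10 of 30 with Ebf1+/- replicate 2 as the only progenitor library. The 4 members of smallest p were Plk1, Aurka, Ube2c and Prc1, a mitotic kinase, a spindle kinase, the ubiquitin-conjugating enzyme of the anaphase-promoting complex and an organiser of the central spindle. Their upstream sequences (250 bases before the RefSeq start, GRCm38.p6, 5′ to 3′ on the gene's strand) are shown because the list shared the letters CCAAT there, with CCAAT or TTTGAA on either strand in capitals.
Plk1 (chr7:122159185-122159434, + strand): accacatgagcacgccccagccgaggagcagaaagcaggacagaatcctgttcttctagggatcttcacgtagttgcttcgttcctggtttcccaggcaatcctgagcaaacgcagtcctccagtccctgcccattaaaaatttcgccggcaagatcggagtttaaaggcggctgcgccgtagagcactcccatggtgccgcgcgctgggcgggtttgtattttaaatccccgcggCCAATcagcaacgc
Aurka (chr2:172370571-172370820, - strand): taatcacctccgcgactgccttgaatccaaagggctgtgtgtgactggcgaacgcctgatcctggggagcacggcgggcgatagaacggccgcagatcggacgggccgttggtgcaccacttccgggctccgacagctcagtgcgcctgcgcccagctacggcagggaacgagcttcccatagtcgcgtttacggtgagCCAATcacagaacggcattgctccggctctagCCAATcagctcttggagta
Ube2c (chr2:164769679-164769928, + strand): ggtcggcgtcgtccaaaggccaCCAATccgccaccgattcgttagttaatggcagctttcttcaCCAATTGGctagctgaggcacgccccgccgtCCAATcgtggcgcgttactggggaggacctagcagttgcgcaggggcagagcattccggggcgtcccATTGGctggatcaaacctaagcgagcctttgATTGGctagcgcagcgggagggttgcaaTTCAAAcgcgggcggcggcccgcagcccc
Prc1 (chr7:80294201-80294450, + strand): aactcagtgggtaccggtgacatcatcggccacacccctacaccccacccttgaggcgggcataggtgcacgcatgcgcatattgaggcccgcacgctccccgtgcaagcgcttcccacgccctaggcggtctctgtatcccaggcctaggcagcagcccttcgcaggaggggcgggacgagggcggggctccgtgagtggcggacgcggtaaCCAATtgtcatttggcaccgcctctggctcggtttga

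CCAAT was found on either strand in 20 of the 25 mitosis genes with a RefSeq promoter (80.0%), against 37.4% of the 9033 tested genes with one. Together with TTTGAA it stood in 28.0% of the mitosis genes and 4.4% of tested genes. The letters CCCNNGGG and CACGTG, searched in the same way, stood in 3 and 1 of these 25 against 15.1% and 8.7% of tested genes. None of these motifs was set apart from the others where they overlapped. CCAAT is the letters of the NF-Y box, and a match is a description of the letters only. The share with CCAAT was 37.4% of genes called higher and 38.7% of genes called lower, close to the 37.4% of all tested genes.

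Ube2c read 349.9, 251 and 197 FPKM in the pools and 108, 139, 127, 118 and 139.7 FPKM in the leukemias (log2 fold change -1.03, SE 0.18, adjusted p = 0.00542). Plk1 read 88.2, 105 and 81.8 FPKM in the pools and 44.4, 58.4, 49.5, 54 and 54.3 FPKM in the leukemias (-0.80, SE 0.13, adjusted p = 0.00335). Aurka fell from 57.2 ± 5.1 to 35.3 ± 3.56 FPKM and Prc1 from 68.4 ± 10.2 to 39.3 ± 4.96 FPKM. The groups did not overlap for any of these 4 genes, but they were picked for their small p. In the whole list 13 of 30 genes were lower without overlap, beside 16.2% of all tested genes. Aurka and Prc1 overlap the genes Cstf1 and Rccd1. The wild-type levels (88, 114 and 90.1 FPKM for Plk1) were like those of the Ebf1+/- pools. Of 30 DNA replication genes 1 was called higher and 0 lower, with a median of 0.19, and 4 were higher and 1 lower at an unadjusted p under 0.05. The called gene was the primase Prim1 (48.7 ± 9.23 to 65.3 ± 3.96 FPKM, adjusted p = 0.0499), whose call was lost (adjusted p = 0.0668 to 0.147) without Ebf1+/- replicate 2 or 3 or any 1 of the leukemias.

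Myc and genes of ribosome biogenesis rose. Of 10 Myc network genes 1 was called higher and 3 lower. Myc, the transcription factor of growth, read 47.9, 57.6 and 61.2 FPKM in the pools and 209.6, 145, 122, 175 and 129 FPKM in the leukemias, without overlap (log2 fold change 1.45, SE 0.19, adjusted p = 0.0012). Its antagonist Mxd1 fell from 11.1 ± 7.65 to 2.3 ± 0.432 FPKM, with the highest pool value (19.8 FPKM) in replicate 3. Of 28 nucleolar ribosome biogenesis genes, 18 were called higher and 1 lower (median 0.57), beside 9.31% of all genes called higher. In the fit with Ebf1+/- replicate 2 alone 8 were called higher. Nop56, a core box C/D protein, read 94.1, 90.8 and 92.3 FPKM in the pools and 183, 195, 174, 157 and 179 FPKM in the leukemias (log2 fold change 0.93, SE 0.10, adjusted p = 0.000542). Gnl3 (nucleostemin) rose from 39.1 ± 5.39 to 91.9 ± 15.7 FPKM, and Wdr43 and Nop16 rose by 0.94 and 0.77 on the log2 scale. The member that fell, Bysl (-1.32), overlaps Ccnd3, which also fell, and reads of the 2 genes may be split between them. The call of Bysl was lost (adjusted p = 0.0544 to 0.0933) without Ebf1+/- replicate 1 or 2 or leukemia 1, 2 or 4.

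The 33 ribosomal protein genes all had a log2 fold change above 0, with 8 called higher and a median of 0.52. Rps3 read 1050, 799.8 and 756 FPKM in the pools and 2334, 1639, 1963, 1461 and 1364 FPKM in the leukemias (log2 fold change 1.00, SE 0.21, adjusted p = 0.0106), and Rpl3 averaged 1263 ± 69.7 and 2188 ± 213 FPKM. This count depended on the pools: 31 were called higher without Ebf1+/- replicate 1, 3 without replicate 3 and 0 with replicate 2 alone, and quantile scaling lowered the median to 0.15. Processed pseudogenes of these genes may take part of their reads. Of 21 translation factor genes 7 were called higher and 1 lower (median 0.33). Eef1g, an elongation factor subunit, rose from 614 ± 28.6 to 976 ± 88.1 FPKM and Eif4ebp1, an inhibitor of cap-dependent initiation, fell from 58.3 ± 11.6 to 32.9 ± 3.81 FPKM.

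Metabolic genes changed member by member. None of 25 oxidative phosphorylation genes was called by limma or by voom on recovered reads (1 was higher at an unadjusted p under 0.05, median -0.02), and 2 were called higher under quantile scaling. Of 22 cholesterol synthesis genes 3 were called higher (median 0.10), among them Idi1 (5.2 ± 1.8 to 12.4 ± 2.4 FPKM) and Cyp51 (8.36 ± 1.32 to 18.6 ± 5.09 FPKM). Of 17 glycolysis genes 3 were called higher and 4 lower. Ldha rose (0.55), a call lost (adjusted p = 0.0501 to 0.0738) without Ebf1+/- replicate 1 or 2 or leukemia 2, 3 or 5. Ldhb, the other lactate dehydrogenase chain, fell from 8.51, 3.28 and 9.75 FPKM to 0.185 FPKM or less (log2 fold change -2.80, SE 0.31, adjusted p = 0.000466). Among 29 histone and DNA modifier genes the only call was Kdm5b, a histone H3 lysine demethylase. It read 8.44, 12.6 and 12.8 FPKM in the pools and 0.205, 0.133, 0.115, 0.0614 and 0.565 FPKM in the leukemias, 52.1-fold lower by the means (log2 fold change -3.33, SE 0.22, adjusted p = 3.9e-05). Wild-type pools held 18.2, 14.4 and 17.9 FPKM. Asns, asparagine synthetase, read 16.2, 19 and 41.1 FPKM in the pools and 0.427, 0, 0.0837, 0.0401 and 0 FPKM in the leukemias (log2 fold change -4.47, SE 0.30, adjusted p = 3.9e-05). Over the pools its order was that of the erythroid factor Klf1 (22.2, 23.5 and 54.5 FPKM), as it was in wild type (6.6, 26.8 and 51.9 FPKM of Asns beside 11.5, 34 and 62.3 FPKM of Klf1). The part of erythroid RNA in this change was not tested.

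Genes of survival and of the p53 response were called in both directions. Of 13 BCL2 family genes 2 were called higher and 2 lower, beside 9.31% and 12.3% of all tested genes. Bok, a pro-apoptotic member, rose from 10.9, 12 and 5.44 FPKM to 27.7, 27.1, 43.1, 17.6 and 34.2 FPKM (log2 fold change 1.57, SE 0.31, adjusted p = 0.00776). Of 15 p53 target genes 4 were called higher and 4 lower (median 0.18). Gadd45a, a growth arrest gene, fell from 26.8 ± 7.45 to 4.85 ± 1.34 FPKM and Rrm2b, a ribonucleotide reductase subunit, from 21.4 ± 4.4 to 6.02 ± 0.615 FPKM. Trp53 itself averaged 111 and 114 FPKM. Interferon-stimulated genes had 2 called higher and 1 lower of 25 (median 0.07), Rtp4 (10.2 ± 5.28 to 32.9 ± 12.2 FPKM) and Oas1a (12.6 ± 3.21 to 21 ± 3.09 FPKM) being the higher ones. The adjusted p of Oas1a was 0.0662 without Ebf1+/- replicate 2 and 0.0714 without replicate 3.

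Homing and adhesion genes were mostly lower, with 8 called lower and 2 higher of 23 (median -0.72), beside 12.3% and 9.31% of all tested genes. Cd44, the hyaluronan receptor, read 36.1, 31.6 and 58.3 FPKM in the pools and 2.68, 0.257, 2.92, 0.205 and 3.31 FPKM in the leukemias (log2 fold change -4.07, SE 0.49, adjusted p = 0.000774). Itgb7, the integrin beta chain of gut homing, fell from 29 ± 14.6 to 1.48 ± 0.955 FPKM. Cd9, a tetraspanin abundant on platelets, read 42.3, 41.9 and 419 FPKM in the pools, highest in the platelet-rich replicate 3, and 0.32 to 3.06 FPKM in the leukemias. Cxcr4, the receptor that retains cells in bone marrow, averaged 203 and 156 FPKM and was not called.

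The genes that fell most were granulocyte, platelet and erythroid genes. All 16 granulocyte markers, all 10 platelet markers and 9 of 10 tested erythroid markers were called lower, with medians of -6.78, -4.78 and -4.01. S100a8, a calgranulin of neutrophils, read 2911, 647 and 530.1 FPKM in the pools and 0.6, 2.92, 2.06, 0.394 and 2.14 FPKM in the leukemias (log2 fold change -8.69, SE 0.56, adjusted p = 3.9e-05). Mpo, myeloperoxidase, read 356, 184 and 1105 FPKM in the pools and at most 0.0607 FPKM in the leukemias. Pf4, a platelet chemokine, read 49.3, 56.6 and 951 FPKM in the pools and had 1 read in the 5 leukemias together. Car1, the erythroid carbonic anhydrase, had 0 reads in the leukemias and 332 ± 179 FPKM in the pools, at least 8463-fold lower against a floor of 3 reads over the 5 libraries. Such floors cover counting error only.

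Genes of this group with no list of their own included Cox6b2, a cytochrome oxidase subunit known from testis (27.9 ± 9.82 to 0.0261 ± 0.0584 FPKM), and Sphk1, a sphingosine kinase with 0 reads in the leukemias (at least 1027-fold lower). Mt2, Tnfaip2, Cldn13, Rhd, Gstm5 and Gatm averaged 20.8 to 39.8 FPKM in the pools and 0.5 FPKM or less in the leukemias. In the pools Klf1, the erythroid master factor, read 22.2, 23.5 and 54.5 FPKM, and Sphk1 read 13.3, 16.4 and 36.1 FPKM, both highest in replicate 3. Stem and early progenitor genes shared the pattern only in part: of 17 tested, 6 were called lower, 1 higher and 10 were not called. Their log2 fold changes were below 0 for 10 members and above 0 for 7, with a median of -0.55 and a highest value of 1.57. Cd34 read 9.29, 4.59 and 19.5 FPKM in the pools and 2 reads were left in the leukemias, and Meis1, Hoxa7 and Gata2 were at 0 reads there. Fits that left out libraries applied the filter of 1 FPKM again to the rest. With Ebf1+/- replicate 2 alone, Cd34, Meis1 and Hoxa7 fell below it, as did Meis1 without replicate 3. The members still tested had a median of 0.17 with replicate 2 alone. Without replicate 3 it was 0.14, with 2 called lower. These medians rest on a changed set of genes and cannot be set against the -0.55 of all 17.

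**Figure D4:**
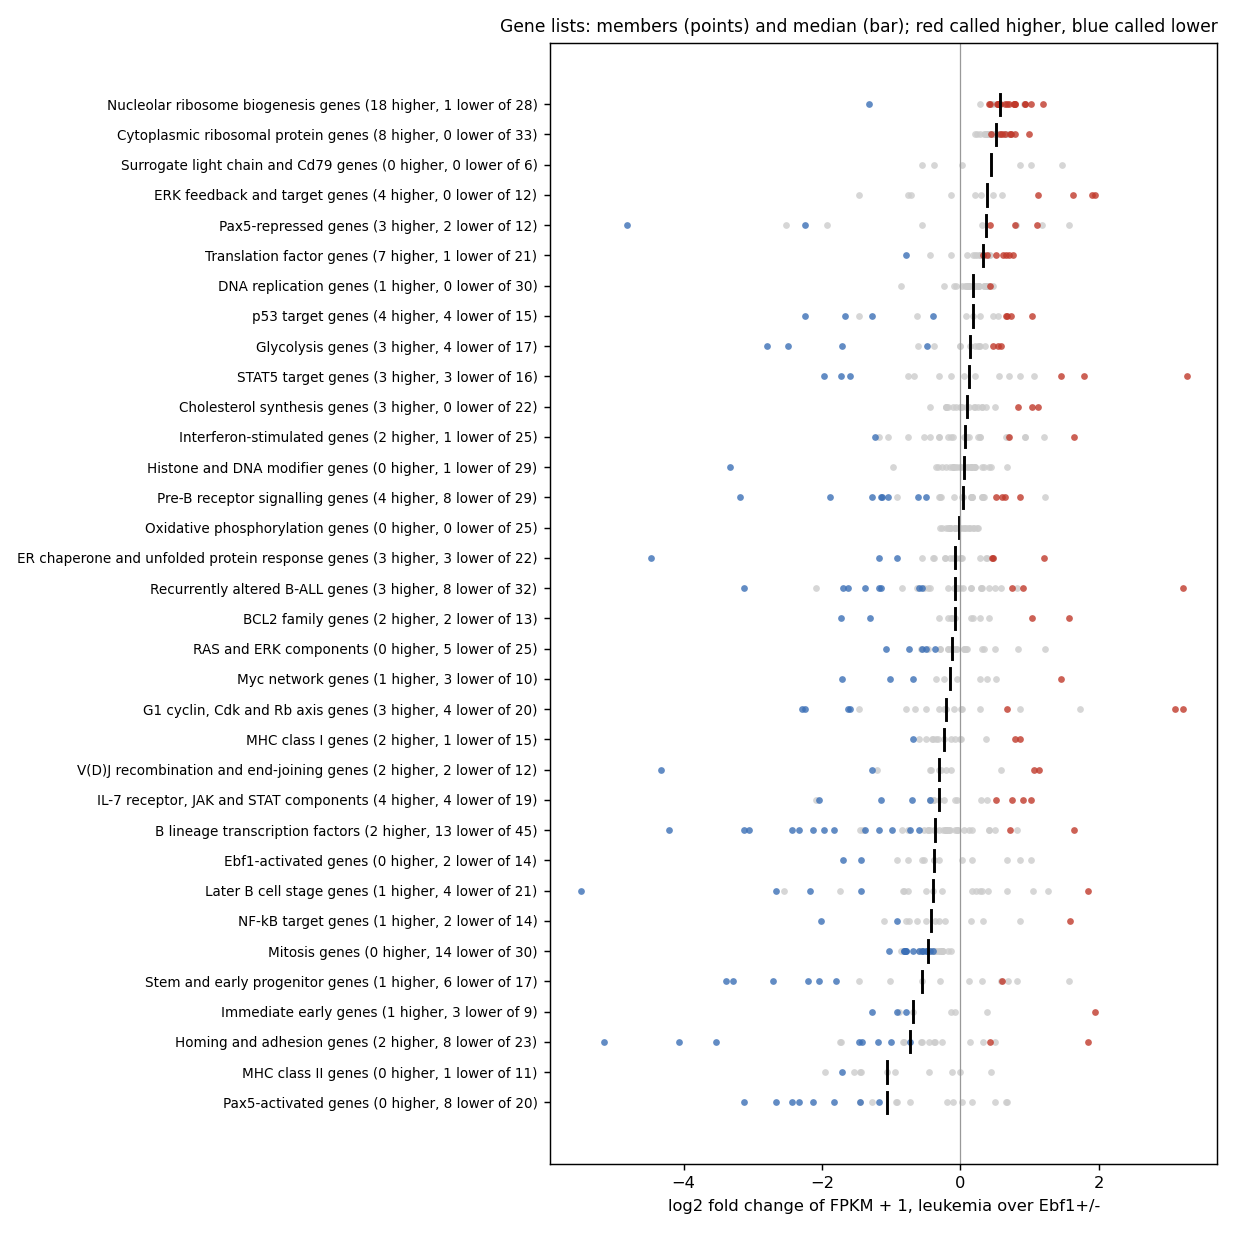
Log2 fold change of FPKM + 1 (x axis) of every tested member (points) of the gene lists, without the lists of cell type markers. Bars give each list's median, with members red where called higher and blue where called lower. Nucleolar genes lie at the top (median 0.57, 18 higher of 28). Pax5-activated genes are among the lowest of the lists shown (median -1.06, 8 lower of 20). The granulocyte, platelet and erythroid marker lists, which are not shown, had lower medians (-6.78, -4.78 and -4.01).

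Markers of other lymph node cells differed by cell type. The stromal genes Ccl19, Ccl21a, Pdpn and Madcam1 are listed at 0 in the leukemias and the Ebf1+/- pools alike and do not tell them apart. Col1a1 averaged 0.132 ± 0.118 FPKM against 4.25 ± 3.14 FPKM in the pools (adjusted p = 0.0724 without Ebf1+/- replicate 2 and 0.0656 without replicate 3). T cell markers summed to 155, 65.4, 57.6, 98.2 and 16 FPKM in the leukemias against 29.2 to 106 FPKM in the pools, and 3 of 10 tested T cell markers were called lower. Of these, Cd3g (adjusted p = 0.0595 to 0.0947) and Cd3e (0.0753 to 0.123) lost their calls without Ebf1+/- replicate 1 or 3 or leukemia 2, 3, 4 or 5. Their part in the other results was not tested. Cd3g read 3.33 FPKM in leukemia 1 and 0.746 to 1.06 FPKM in the others, and Siglech, a plasmacytoid dendritic cell receptor, 7.9 FPKM in leukemia 1 and 0.159 to 0.408 FPKM in the others. Trat1, a T cell receptor adaptor, read 54.8, 10.5, 0, 1.02 and 0.102 FPKM. The plasma cell list had 1 gene called higher and 1 lower of 6, where Mzb1, a chaperone of immunoglobulin assembly, rose from 438, 281 and 115 FPKM to 710.4, 614, 844, 513 and 629 FPKM (log2 fold change 1.43, SE 0.37, adjusted p = 0.0252). That p was 0.0527 to 0.0566 without Ebf1+/- replicate 2 or leukemia 1 or 3. Mrc1, a macrophage receptor, was called higher at low levels (0.357 ± 0.214 to 3.34 ± 1.47 FPKM), while Lyz2 fell from 907 ± 650.1 to 84.6 ± 52.8 FPKM.

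The 5 leukemias differed from each other in single genes. Over all tested genes the median SD of log2 values was 0.19 in leukemia and 0.30 in the Ebf1+/- pools, and 66.8% of genes varied more in the pools. The 6 genes of largest leukemia SD were Xist, Eif2s3y, Aurkc, Rdx, Trat1 and Mrgpra1. Xist, the RNA of the inactive X chromosome, read 0.0328, 49.5, 54.4, 25.5 and 0.0234 FPKM, and the Y-linked Eif2s3y read 21.9, 0, 0, 0 and 38.9 FPKM. The pools held both (Xist 9.29 to 13.2 and Eif2s3y 7.85 to 30.1 FPKM). Rdx, the membrane linker radixin, read 4.54, 0.189, 28.3, 0.112 and 57.7 FPKM, so that leukemia 5 was near the pools (37.8, 54.1 and 54.4 FPKM) and leukemias 2 and 4 nearly lacked it. Aurkc, a meiotic Aurora kinase, read 36 and 28.5 FPKM in leukemias 3 and 4 and at most 0.194 FPKM in the other 3. Mrgpra1, a sensory neuron receptor, read 42.6, 5.05, 0.0741, 0.0711 and 19 FPKM and was at 0 in every pool.

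In leukemia 4 a long stretch of chromosome 1 was lower than in the other 4 leukemias. The scan was made after the values had been seen and is given as a description. The ends of the stretch were set from the differences of leukemia 4 itself, so the median, counts and neighbours below are not independent of that choice. From Mff to Mfsd4 (82724890 to 132069658, 49.3 Mb), the 83 genes with a leukemia mean of at least 5 FPKM had a median log2 difference of -0.92 (quartiles -1.07 and -0.78) from the mean of the other 4. The levels stood at a median of 51.4% of theirs, against 97.1% for the 40 genes flanking the stretch. Leukemia 4 was the lowest of the 5 in 80 of the 83 genes and in 10 of the 40 flanking genes, and 82 of the 83 differences were below 0, Efhd1 being the exception. The neighbours just outside, Dock10 and Rbbp5, differed by -0.14 and -0.10. Mcm6, a helicase subunit within the stretch, read 123 FPKM in leukemia 4 and 213 to 239 FPKM in the others, and Bok was lowest there too (17.6 FPKM). Inpp5d, a phosphatase of B cell receptor signalling, and Cxcr4 also lie in it.

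Over whole chromosomes the largest medians belonged to leukemia 3, at 0.25 on chromosome 15 and 0.22 on chromosome 17 against the other 4 leukemias, and the next largest was -0.11. Windows of 25 genes were moved along by 1 gene at a time, so neighbouring windows share most of their genes and their counts are not separate occurrences. Of 38760 windows, those past a median of 0.3 in either direction numbered 89 on chromosome 1 in leukemia 4. In leukemia 3 they numbered 61 on chromosome 17 and 39 on chromosome 15. Leukemia 2 passed it 22 times on chromosome 1 and 8 times on chromosome 15, leukemia 1 passed it 10 times on chromosome 10, and 1 window each passed on chromosome 4 in leukemia 2 and on chromosome 1 in leukemia 5. Each leukemia was set against a mean that holds the other 4, so the low values of leukemia 4 on chromosome 1 and the high values of leukemia 3 on chromosome 15 enter the values of the rest there, and the windows of leukemias 2 and 5 on those chromosomes cannot be read as separate differences. Myc, on chromosome 15, read 122 FPKM in leukemia 3, the lowest of the 5.

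**Figure D5:**
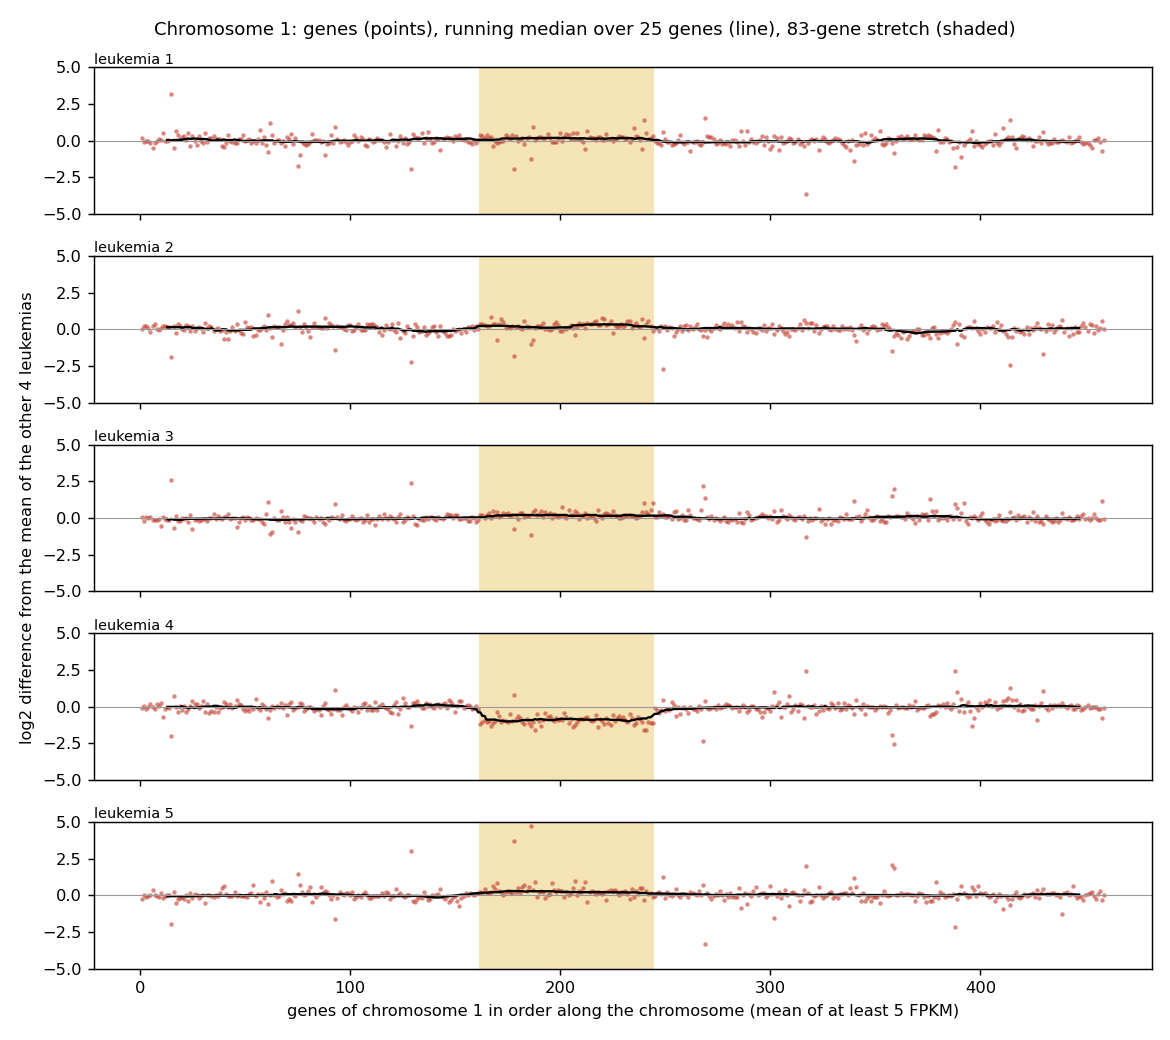
Log2 difference of each leukemia from the mean of the other 4 (y axis) for genes of chromosome 1 in order (x axis, rank along the chromosome, points), with the running median over 25 genes (line) and the 83-gene stretch shaded. In leukemia 4 the line drops to about the stretch's median of -0.92, while in the other 4 the stretch's medians are 0.17 to 0.26.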

How the data were processed

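RNA-seq values of 8 libraries were compared, and 3 wild-type libraries gave reference levels. The authors deposited FPKM per gene in 1 table. BWA 0.7.12 is listed for the wild-type and leukemia libraries and TopHat2 with Cufflinks for the Ebf1+/- libraries, all on mm10, per the submitters' processing notes. What counted the reads, and on which annotation, is not given in the sources used here. FPKM steps gave whole reads (within 0.001 read) for all 17380 genes above 0, with totals of 8506680 to 15313920 reads. Among the tests, these reads entered only an alternative, voom. They also gave the chi-square per gene, the read numbers, the floors of 3 reads and the levels of the simulated data. 0 columns were left unused.

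The main test was a two-sided limma fit (version 3.58.1, R 4.3.3, trended eBayes) on log2(FPKM + 1) for genes with a mean of 1 FPKM or more, with Benjamini-Hochberg adjustment at 0.05. It was tested on simulated data. Pax5 and Ebf1 were also compared by an exact permutation test over 56 assignments. Gene lists got counts and medians only. Genes were named by rule. Beside Pax5 and Ebf1, these were the 10 called changes furthest up and the 10 furthest down of 2-fold or more with 5 FPKM or more in the higher group and no overlap, the next 10 of each whose higher group lay within 3-fold, the 2 called members of smallest p in each list (4 where over 10 were called) and the 6 genes of largest spread among leukemias at 5 FPKM or more. Predicted, Rik, -ps, Mir, Snor and segment symbols and date serials were left out. Further genes were chosen after their values were seen, as was the regional scan. The members and lists were chosen with earlier results of these data known.

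Positions and promoters come from RefSeq GRCm38.p6, to which 22928 of 23071 identifiers (99.4%) matched, and 27 identifiers were date serials. Alternatives changed the pseudocount, filter, scaling, samples, weights, prior, minimum change and block, and left out each library. The fit with Ebf1+/- replicate 2 alone was added after seeing the data. Results on some genes are not reported here.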

Additional observations from a re-analysis of the deposited data

Results flagged for a closer look

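In 19 of 192 genes examined, 1 of the 5 leukemias stood apart from the other 4 by Dixon's test at the 95% level. Chance flags about 1 in 20 groups. In leukemia 5, Igll1 was lowest at 552 FPKM, Vpreb1 at 733 FPKM, Cd72 at 4.92 FPKM and Dyrk4 at 6.06 FPKM. In leukemia 4, Mcm6, which lies in the chromosome 1 stretch, was lowest at 123 FPKM. In leukemia 1, Siglech was highest at 7.9 FPKM, Cd3g at 3.33 FPKM and Cd209a at 0.951 FPKM, and in leukemia 3 Ccl9 was highest at 5.06 FPKM.

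The other 10 genes were near 0 in every leukemia, where few reads set the highest value. These values were 0.427 FPKM for Asns and 0.249 FPKM for Gatm in leukemia 1, 0.549 FPKM for Mt2 in leukemia 2, 0.131 FPKM for Cox6b2 and 0.185 FPKM for Ldhb in leukemia 3, and 0.084 FPKM for Elane and 0.145 FPKM for Cldn13 in leukemia 4. In leukemia 5 they were 0.119 FPKM for Pf4, 0.0533 FPKM for Cd34 and 0.0574 FPKM for Prss34.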

How the results depend on the processing

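Against 1039 genes called higher and 1370 lower, quantile scaling gave 1568 higher, a 2-fold minimum 357 and 817, Ebf1+/- replicate 2 alone 231 and 338, a filter of 5 FPKM 881 lower and no filter 2148 lower. Leaving out each library gave 690 (without Ebf1+/- replicate 3) to 1224 higher (without Ebf1+/- replicate 1) and 1007 to 1416 lower. With the replicate number as a block the counts were 350 and 594, but same-numbered libraries correlated at 0.03, 0.06 and -0.10 in their deviations, no Ebf1+/- library correlated best with its own number, and the numbers do not pair the samples. Over all called genes 1 turned sign under quantile scaling. Among the genes examined singly, those whose sign turned were not called. For Ebf1 the log2 fold change was 0.04 under quantile scaling and -0.36 to 0.13 over the left-out libraries, and for Xist it was 0.29 with the block and -0.93 to 0.51. For Cd79a it was -0.21 with Ebf1+/- replicate 2 alone, -0.07 under quantile scaling, -0.12 with the block and -0.45 to 0.39. With that library alone Inpp5d was at -0.07 and Mcm6 at -0.02. Over the left-out libraries Cd79b ranged from -0.86 to 0.04, Rag1 from -0.60 to 0.02, Flt3 from -0.14 to 0.62 and Trp53 from -0.05 to 0.14. The cause was not tested. At 8506680 to 15313920 reads, levels under 0.059 FPKM can rest on 1 read.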
